A study of Mus musculus with 480 samples.

Results

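The mouse genes Chia1, Chil1, Chil3 and Chil4 were followed through single sorted lung cells. They are 4 of the 53379 genes in the count table and were taken by their Ensembl identifiers. They were chosen by the high Chia1 counts of club cells in the BASCs-Tracer line, measured in these same cells, so that level is a description and supports nothing. Expression was measured in 480 sorted epithelial cells of 3 reporter lines, 160 per line, on 5 plates of 96 wells. BASCs-Tracer mice carry Sftpc-DreER, Scgba1a1-CreER and R26-RSR-LSL-tdtomato, so a cell is marked only where both recombinases acted, and gave bronchioalveolar stem cells (BASCs; 85 on plate 1 and 53 on plate 2), 15 club cells, 6 alveolar type 2 (AT2) cells and 1 ciliated cell. Scgb1a1-TD mice carry Scgba1a1-CreER and R26-tdtomato, marked from the promoter of a club cell secretoglobin, and gave 38 BASCs, 24 ciliated cells, 97 club cells and 1 AT2 cell. Sftpc-TD mice carry Sftpc-DreER and R26-RSR-tdtomato, marked from the promoter of surfactant protein C, and gave 11 BASCs and, on plates 4 and 5, 60 and 89 AT2 cells. All sub-types are as the labels give them, and the labels used here give no age, strain or treatment.

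Chia1 encodes acidic mammalian chitinase, a secreted enzyme of glycoside hydrolase family 18 that cuts chitin, the polymer of N-acetylglucosamine in fungal walls, insects and mites. Mice have no chitin of their own, and mice that lack the enzyme build up inhaled chitin in the airways. Chil1 (also called BRP-39, or YKL-40 in human), Chil3 (Ym1) and Chil4 (Ym2) encode relatives that keep the fold but have lost the catalytic residue, and so bind sugars without cutting them. In mouse, Chil3 is a product of alveolar macrophages and other myeloid cells, and Chil4 is best known from allergic airway epithelium.

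The loss of the catalytic residue can be read in the coding sequences. These stretches of GENCODE M21 transcripts run over the active site motif, with the codon at the place of the catalytic glutamate in capitals.
Chia1: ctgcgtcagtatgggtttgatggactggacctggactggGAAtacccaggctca
Chil1: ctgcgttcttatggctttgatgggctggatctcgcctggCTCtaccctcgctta
Chil3: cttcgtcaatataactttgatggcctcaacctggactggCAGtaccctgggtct
Chil4: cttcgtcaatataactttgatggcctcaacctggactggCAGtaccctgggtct
GAA of Chia1 (codon 140) reads as glutamate, CTC of Chil1 as leucine, and CAG of Chil3 and Chil4 (codon 140 in each) as glutamine. Chil3 and Chil4 do not differ over these 54 bases. Over their aligned coding bases they are 95.3% identical, and 20.6% of the 50-base windows of Chil3 also occur in Chil4, so reads could be split between this pair and the counts of both are uncertain. Chia1 is 75.3% identical to Chil3 and 62.2% to Chil1, and shares no 50-base window with Chil1, Chil3 or Chil4.

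All positions are on GRCm38. Chia1 (ENSMUSG00000062778) lies on the plus strand of chromosome 3, from 106113229 to 106132120. Chil3 (ENSMUSG00000040809), from 106147554 to 106167564, and Chil4 (ENSMUSG00000063779), from 106201490 to 106219507, follow on the minus strand of chromosome 3. Chil1 (ENSMUSG00000064246) lies apart, on the plus strand of chromosome 1 from 134182176 to 134190181. No other annotated gene overlapped any of these 4 genes. Chil1 took 2950713 reads and had a read in all 480 cells, Chia1 took 921463 reads and was at 0 in 3 cells, Chil3 6930 reads in 41 cells and Chil4 8 reads in 1 cell.

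The table held 492096494 reads. The median cell had 1000465 and single cells between 3379 and 3781974, with 12 of them under 100000. No label names an animal, so each line and sub-type counts as 1 sample, no test between groups was possible and no value has a replicate check. Levels are reads of a gene scaled to a common total of 1000000 reads (CPM), from reads summed over the cells of a group, and intervals are exact Poisson or Clopper-Pearson intervals at 95%. Amplified reads were counted with no molecular identifiers, so intervals cover counting error only. Where a count is 0, the share it allows is given as 3 counts of the total, with the same limit. Lines shared only plates 2 and 4. Line and plate cannot be told apart on the other plates, and line and animal cannot be told apart on any plate. As a check of the sub-types, Foxj1, a regulator of ciliogenesis, stood at 349.3 CPM in ciliated cells of Scgb1a1-TD and at 2.35 CPM or less in every other group. The lone ciliated cell of BASCs-Tracer had mixed markers and enters no comparison. Its 14 ciliated genes summed to 4755 CPM, inside the 4177 to 23159 CPM of the Scgb1a1-TD ciliated cells, but it had Foxj1 at 0 and Sftpc at 95578 CPM. Of the 15 club cells of BASCs-Tracer, 13 had more reads of a club list than of an AT2 list, and as a pool they held Sftpc at 14297 CPM, against 4062 CPM in club cells of Scgb1a1-TD.

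Chia1 was highest in club cells of BASCs-Tracer and lowest in ciliated cells. In the 15 club cells of BASCs-Tracer it ran from 18.4 CPM over a median of 6552 CPM to 43600 CPM, and the pool stood at 14048 CPM (13987 to 14109). The 7 of these cells on plate 1 all exceeded 1000 CPM, while those on plate 2 were split, with 4 of 8 above it. A single cell gave 34.2% of the Chia1 reads of this group and 5 cells gave 88.7%.

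In the 97 club cells of Scgb1a1-TD, Chia1 ran from 0 over a median of 17.4 CPM to 4188 CPM, and the pool stood at 293.9 CPM (290.5 to 297.3). These club cells fell into many low cells and a minority with clear signal: 39 of 97 had 100 CPM or more (40.2%, 30.4% to 50.7%) and 9 had 1000 CPM or more. Against them, 13 of the 15 club cells of BASCs-Tracer passed 100 CPM (86.7%, 59.5% to 98.3%). The ranges of both groups overlapped between 18.4 and 4188 CPM, and 9 cells of BASCs-Tracer lay above every club cell of Scgb1a1-TD.

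Chia1 was also a gene of AT2 cells. In the AT2 cells of Sftpc-TD it ran from 0 over a median of 1289 CPM to 18941 CPM (pool 2110 CPM, 2104 to 2117), and 84.6% of them passed 100 CPM (77.7% to 89.96%). The pool was 1801 CPM on plate 4 and 2268 CPM on plate 5. The 6 AT2 cells of BASCs-Tracer ran from 5.66 over a median of 677 CPM to 2296 CPM.

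BASCs held pooled Chia1 between the levels of Scgb1a1-TD club cells and Sftpc-TD AT2 cells, with a wide spread over cells. The AT2 cells of BASCs-Tracer, pooled at 1082 CPM, lay below the BASCs of BASCs-Tracer and of Scgb1a1-TD. The BASCs of BASCs-Tracer ran from 4.62 over a median of 375.1 CPM to 16749 CPM (pool 1713 CPM, 1705 to 1721), and 91 passed 100 CPM (65.9%). The 38 BASCs of Scgb1a1-TD ran from 8.01 over a median of 978 CPM to 19652 CPM (pool 1902 CPM, 1888 to 1916), and 35 passed 100 CPM. The 11 BASCs of Sftpc-TD ran from 2.91 over a median of 447.9 CPM to 2923 CPM (pool 1070 CPM, 1052 to 1088), and 7 passed 100 CPM. Over the middle 50% of cells Chia1 spanned 37.6 to 1552 CPM in BASCs of BASCs-Tracer, 547 to 2250 CPM in those of Scgb1a1-TD, and 57.6 to 2052 CPM in those of Sftpc-TD.

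Ciliated cells had the lowest Chia1 level, which is used here as a floor for comparison. Whether their reads were background or expression was not tested. The 24 ciliated cells of Scgb1a1-TD had Chia1 from 0 over a median of 9.19 CPM to 45.7 CPM (pool 8.67 CPM, 7.49 to 9.99), and 23 of them had a read, as did 96 of the 97 club cells of the same line. Median depth was 990495 reads in these ciliated cells and 1082694 reads in the club cells, so a share of cells with any read of Chia1 says nothing here. The pooled ciliated level was 27.9 CPM on plate 2, shared with BASCs-Tracer, 5.38 CPM on plate 3 and 9.62 CPM on plate 4. None of the 24 reached 100 CPM, which by 3 counts of 24 allows a share of up to 12.5%. With each cell thinned to 100000 reads, 10 or more reads of Chia1 were left in 92.3% of 13 club cells of BASCs-Tracer, 62.4% of its BASCs, 91.9% of 37 BASCs and 39.4% of 94 club cells of Scgb1a1-TD, 72.7% of 11 BASCs and 85.1% of the AT2 cells of Sftpc-TD, and in 0 of 24 ciliated cells.

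Chil1 had a different order, with AT2 cells and BASCs high and both sets of club cells lower. In BASCs of BASCs-Tracer it ran from 27.96 over a median of 6535 CPM to 52939 CPM (pool 9011 CPM, 8993 to 9029). BASCs of Scgb1a1-TD ran from 349.2 over 6022 CPM to 19109 CPM (pool 6659 CPM), and BASCs of Sftpc-TD from 1309 over 6681 CPM to 14934 CPM (pool 8253 CPM). AT2 cells of Sftpc-TD ran from 32.7 over a median of 6386 CPM to 16473 CPM (pool 7030 CPM, 7018 to 7042), and 98.7% passed 1000 CPM. Medians of these 4 groups thus lay between 6022 and 6681 CPM, a far narrower range than for Chia1.

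Club cells of BASCs-Tracer had Chil1 from 52.2 over a median of 1348 CPM to 12148 CPM (pool 2111 CPM, 2087 to 2135). Club cells of Scgb1a1-TD ran from 8.28 over a median of 1366 CPM to 9067 CPM (pool 1920 CPM, 1911 to 1928), so the medians of club cells were close in both lines. Ciliated cells had a median of 31.1 CPM, and their pool of 125.9 CPM rested on a single cell at 1477 CPM that gave 49.4% of the reads. All 24 ciliated cells had a read of Chil1, but 10 reads after thinning were left in only 20.8% of them, against 84.6% of club cells of BASCs-Tracer, 92.6% of club cells of Scgb1a1-TD and 99.3% of AT2 cells.

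**Figure D1:**
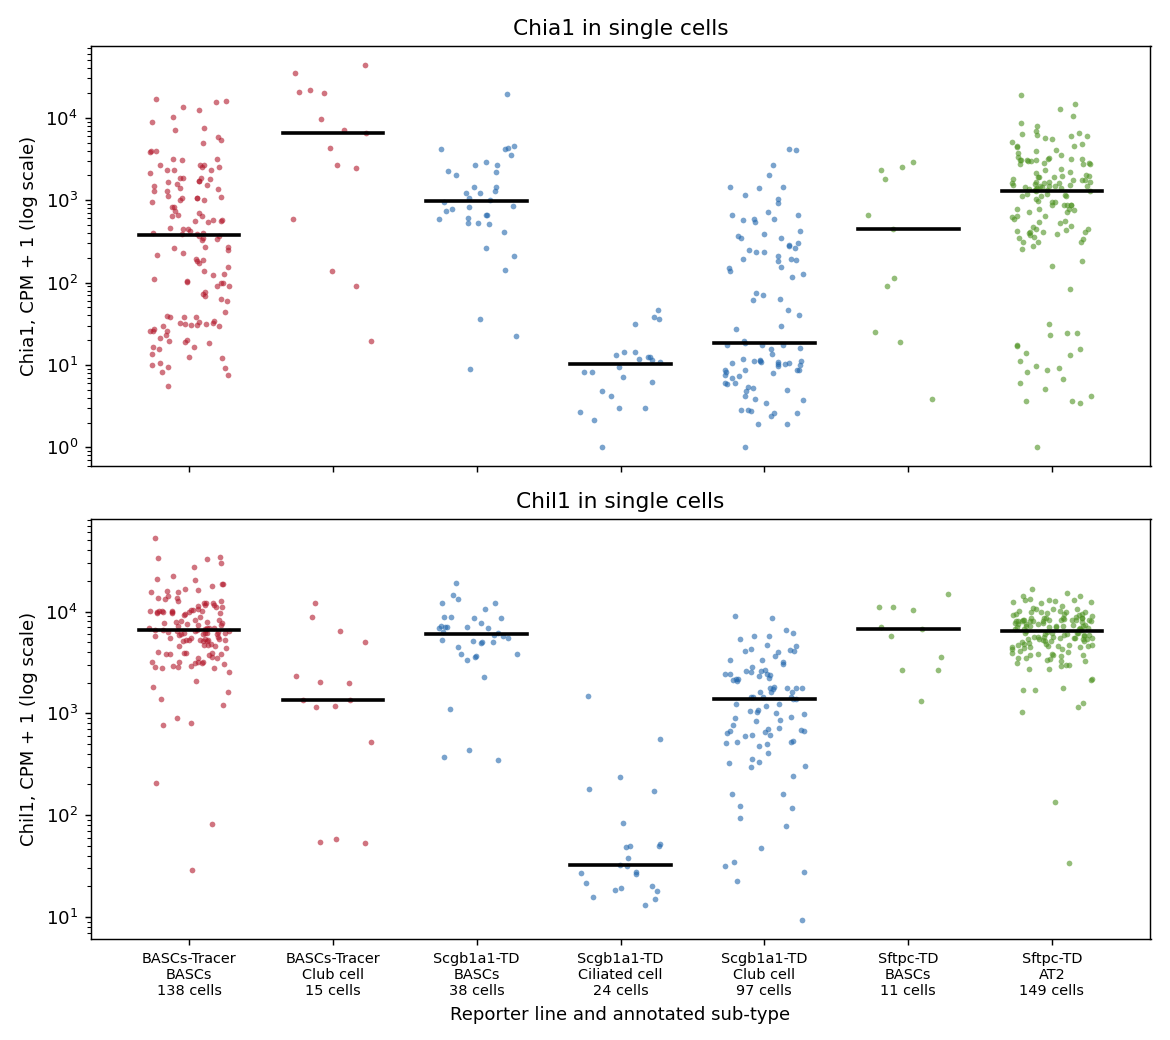
CPM plus 1 on a log axis of Chia1 (upper panel) and Chil1 (lower panel) in each cell of 7 groups. Each point is a cell, coloured by line, and black bars are medians; Chia1 medians run from 9.19 CPM in ciliated cells to 6552 CPM in club cells of BASCs-Tracer, and Chil1 medians from 31.1 CPM in ciliated cells to 6681 CPM in BASCs of Sftpc-TD.

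In pooled order over the groups of 5 cells or more, Chia1 went down through club cells of BASCs-Tracer, AT2 cells of Sftpc-TD, BASCs of Scgb1a1-TD, those of BASCs-Tracer, AT2 cells of BASCs-Tracer, BASCs of Sftpc-TD, club cells of Scgb1a1-TD and ciliated cells. The middle 50% of cells overlapped between every pair of neighbours in that order, for example 1542 to 20214 CPM in club cells of BASCs-Tracer and up to 2728 CPM in AT2 cells of Sftpc-TD. Chil1 went down through BASCs of BASCs-Tracer, BASCs of Sftpc-TD, AT2 cells of Sftpc-TD, AT2 cells of BASCs-Tracer, BASCs of Scgb1a1-TD, club cells of BASCs-Tracer, club cells of Scgb1a1-TD and ciliated cells. Its neighbours overlapped in the same way except at 2 steps. BASCs of Scgb1a1-TD spanned 3975 to 8331 CPM over the middle 50% of cells, above the 832 to 3694 CPM of club cells of BASCs-Tracer. Ciliated cells spanned 18.99 to 59.03 CPM, below the 537 to 2456 CPM of club cells of Scgb1a1-TD.

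Set per kilobase of exon, Chil1 exceeded Chia1 in most groups and Chia1 exceeded Chil1 in the club cells of BASCs-Tracer. The CPM per kilobase of Chil1 was 0.102 times that of Chia1 in the club cells of BASCs-Tracer, at 753 for Chil1 and 7382 for Chia1. For BASCs the same quotient was 3.57 (BASCs-Tracer), 2.38 (Scgb1a1-TD) and 5.24 (Sftpc-TD), and it was 4.43 for the Scgb1a1-TD club cells and 2.26 for the Sftpc-TD AT2 cells. By cell, Chil1 was the higher of both per kilobase in 5 of 15 club cells of BASCs-Tracer, 86.96% of the BASCs of BASCs-Tracer, 81 of 97 club cells of Scgb1a1-TD and 83.2% of the AT2 cells of Sftpc-TD.

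Between groups, differences are given as log2 ratios of pooled CPM with 1 CPM added. A gene counted as measured at 5 CPM or more in either group, and a difference was called at 2-fold or more. The range over pairs of plates with 5 or more cells of each group stands beside each ratio as its spread.

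The club cells of both lines lay far apart in Chia1 and close together in the pooled level of Chil1. Chia1 was higher by 5.57 (5.13 to 7.10 over 6 plate pairs), a fold of 47.6, in club cells of BASCs-Tracer than in those of Scgb1a1-TD. This contrast chose the genes, so nothing is read from its rank of 8 among 10475 measured genes. Chia1 was thus 1 of the 2 measured members called higher, beside 21.1% of all measured genes, and none was called lower, beside 29.1%. Chil1 had a ratio of 0.14 (-1.03 to 1.56), and its plate pairs fell on both sides of 0. On plate 2, which held both lines, the ratio was 6.09 for Chia1 and 0.53 for Chil1, from 8 club cells of BASCs-Tracer and 22 of Scgb1a1-TD. Without plate 3 the ratio of Chia1 became 6.53, and without plate 2 that of Chil1 became -0.85. From the median cell of each group the Chia1 ratio was 8.48. Markers of other cells moved too: 9 of 16 AT2 genes were called higher and none lower, and 11 of 16 club genes lower and 1 higher, in the BASCs-Tracer club cells. Of the 10 pan-leukocyte markers 3 were measured there, with 2 called higher, and their summed level ran from 0 to 1031 CPM in those cells, against 0 to 863 CPM in club cells of Scgb1a1-TD. The part of these markers in the Chia1 difference was not tested. Only 4 club cells of BASCs-Tracer and 39 of Scgb1a1-TD had under 50 CPM of leukocyte markers, and between these the Chia1 ratio was 6.65. The actin-bundling gene Lcp1, one of the 10 markers, alone stood at 157.9 CPM in BASCs-Tracer club cells and 122.9 CPM in Scgb1a1-TD club cells.

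Club cells of Scgb1a1-TD lay below AT2 cells of Sftpc-TD in both genes. The ratio was -2.84 for Chia1 (-4.24 to -2.30 over plate pairs) and -1.87 for Chil1 (-3.01 to -1.59). Both measured members were called lower, where 19.5% of 10794 measured genes were, and none higher, where 15.8% were. On plate 4, which held both lines, the ratios were -3.91 for Chia1 and -2.89 for Chil1, and without plate 3 that of Chia1 was -3.80. From the median cells Chia1 stood at -6.13, a larger gap than in the pools.

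BASCs of BASCs-Tracer lay above club cells of Scgb1a1-TD, by 2.54 for Chia1 (2.12 to 4.0) and by 2.23 for Chil1 (1.81 to 3.62). With Chil3, all 3 measured members were called higher, where 18.5% of 10788 measured genes were, and none lower, where 15.2% were. Most Chil3 reads of these BASCs came from a single cell, and their median cell had none. Without plate 3 the Chia1 ratio was 3.49, and on plate 2 alone it was 3.36. Against AT2 cells of Sftpc-TD the same BASCs showed -0.30 for Chia1 (-0.51 to 0.09) and 0.36 for Chil1 (0.10 to 0.74), neither of them called. In that pair only Chil3 of 3 measured members was called higher, where 9.9% of 10507 measured genes were, and none lower, where 9.17% were, and no plate held both groups. By the median cell, Chia1 was lower by -1.78 in these BASCs than in AT2 cells.

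Within a line, BASCs and club cells differed in Chia1 in opposite directions. The direction in BASCs-Tracer rests on the high Chia1 of its club cells, the value by which the genes were chosen. That direction is a description and supports nothing. In BASCs-Tracer the BASCs lay below the club cells by -3.04 in Chia1 (-3.37 to -2.74 over plate pairs), while Chil1 was higher by 2.09 (1.54 to 3.36). Of the 3 measured members 1 was called lower, where 21% of 10613 measured genes were, and 2 higher, where 31.8% were. Chil3 was among the higher ones, with most of its reads in these BASCs from a single cell. On the same plate, the Chia1 ratio was -3.37 on plate 1 (85 BASCs and 7 club cells) and -2.74 on plate 2 (53 and 8). Without plate 2 the Chil1 ratio was 2.85.

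In Scgb1a1-TD the BASCs lay above the club cells by 2.69 in Chia1 (0.96 to 4.04) and by 1.79 in Chil1 (1.25 to 3.05). Both measured members were called higher, where 17.2% of 10631 measured genes were, and none lower, where 24.7% were. On the same plate, Chia1 ratios were 1.92 on plate 2 (5 BASCs and 22 club cells), 2.43 on plate 3 (23 and 60) and 4.03 on plate 4 (10 and 15). Without plate 3 the ratio was 3.56. Chil1 was thus higher in BASCs than in club cells of both lines, and Chia1 only in Scgb1a1-TD; the difference between the lines was not tested.

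Ciliated cells lay far below club cells of the same line and plates. The ratio was -4.93 for Chia1 (-5.84 to -2.05) and -3.92 for Chil1 (-6.16 to -2.37), in a pair whose median over all measured genes was 0.74. Both measured members were called lower, where 14.9% of 12011 measured genes were, and none higher, where 43% were. Without plate 3 the ratios were -3.35 and -4.74. The median cells differed by only -0.85 for Chia1, against -5.41 for Chil1.

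The remaining comparisons of BASCs gave small or unsteady ratios. BASCs of Sftpc-TD against AT2 cells of the same line showed -0.98 for Chia1 and 0.23 for Chil1, neither called, in a pair whose median over all measured genes was -0.33. With 4 of the BASCs on plate 4 and 7 on plate 5, the Chia1 ratio was -2.41 without plate 4 and 0.18 without plate 5. Of the 3 measured members only Chil3 was called higher in this pair, where 16.6% of 10488 measured genes were, and none lower, where 35.4% were. BASCs of BASCs-Tracer against BASCs of Scgb1a1-TD showed -0.15 for Chia1 (-0.31 to 1.44) and 0.44 for Chil1 (0.06 to 1.09), with Chil3 again the only measured member called higher, where 21.1% of 10447 measured genes were, and none lower, where 10.2% were. On plate 2, with 5 BASCs of Scgb1a1-TD, Chia1 showed 1.44. In BASCs of Sftpc-TD and in those of BASCs-Tracer, most Chil3 reads came from a single cell of the group.

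**Figure D2:**
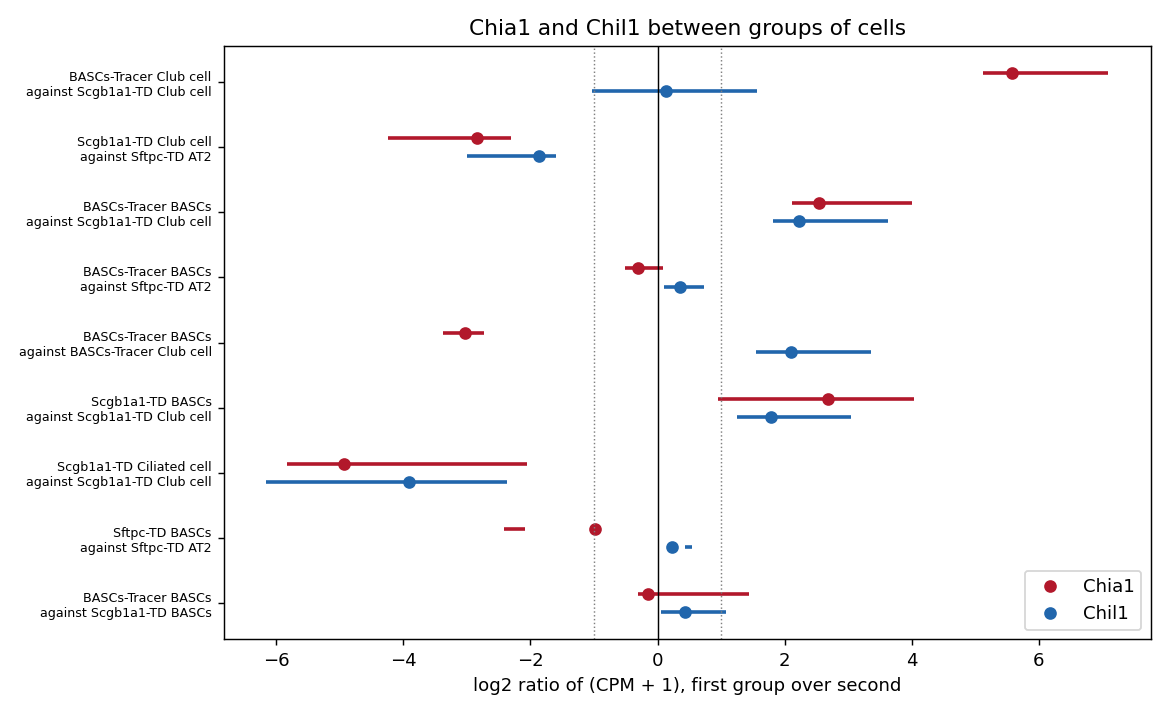
Log2 ratio of CPM plus 1 of Chia1 (red) and Chil1 (blue) in 9 pairs of groups, first-named group over second. Points are pooled cells, bars the range over pairs of plates with 5 or more cells each, and dotted lines a 2-fold difference; a bar can leave out the point where a plate has fewer cells, as for BASCs of Sftpc-TD, and Chia1 runs from -4.93 to 5.57.

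Chil3 was carried by very few cells. A single BASC of Sftpc-TD on plate 5 held 4778 of the 6930 reads, at 8053 CPM, and a single BASC of BASCs-Tracer on plate 1 held 1563 reads, at 1722 CPM. The next cells were a BASC of BASCs-Tracer at 217.4 CPM, a BASC of Scgb1a1-TD at 124.2 CPM, an AT2 cell of Sftpc-TD at 49.6 CPM and a club cell of Scgb1a1-TD at 39.7 CPM. In every group the median cell had no read of Chil3. Pooled levels were 17.8 CPM in BASCs of BASCs-Tracer, 0.207 CPM in its club cells, 3.37 CPM in BASCs of Scgb1a1-TD, 0.473 CPM in its club cells, 380 CPM in the Sftpc-TD BASCs and 0.343 CPM in that line's AT2 cells.

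The BASCs at 8053 and 1722 CPM of Chil3 also held leukocyte genes. The BASC at 8053 CPM had 10 of 10 pan-leukocyte markers at 10 CPM or more, with a sum of 8139 CPM and Ptprc, the common leukocyte antigen, at 1928 CPM. Of 12 alveolar macrophage markers it had 3 with a read (Itgax, Cd68 and Mrc1) and none of Marco, a scavenger receptor of those cells, and of 11 neutrophil and monocyte markers 4. The BASC at 1722 CPM had 8 of the 10 pan-leukocyte markers at 10 CPM or more (sum 2902 CPM), and its neutrophil and monocyte markers summed to 3270 CPM. Both cells also held epithelial reads, with Sftpc at 64715 CPM in the first and 28754 CPM in the second. The BASC at 217.4 CPM of Chil3 had 3 of the 10 pan-leukocyte markers at 10 CPM or more, and Marco at 32.3 CPM. The cells at 124.2, 49.6 and 39.7 CPM had only Lcp1 of these markers at that level. Doublets were not called, and their part was not tested.

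The Chil3 ratios rest on these cells. BASCs of Sftpc-TD stood above AT2 cells of the same line by 8.15, but without plate 5 the ratio was -0.80, without plate 4 it was 9.12, and with the highest cell of each group left out it was 0.18. BASCs of BASCs-Tracer stood above AT2 cells of Sftpc-TD by 3.81, above club cells of Scgb1a1-TD by 3.67 and above club cells of BASCs-Tracer by 3.96. Without plate 1 these 3 ratios were 2.76, 2.63 and 2.91. Among cells under 50 CPM of leukocyte markers they were -0.42, 0.21 and -0.08, from 72 BASCs set against 76 AT2 cells, 39 club cells and 4 club cells. Over all AT2 cells of Sftpc-TD, Lcp1 stood at 131.9 CPM and Ptprc at 0.0208 CPM, so a cell can pass 50 CPM by Lcp1. For BASCs of BASCs-Tracer against BASCs of Scgb1a1-TD the ratio of 2.11 became 1.06 without plate 1 and 4.23 without plate 3. Of the 1899 Chil3 reads in BASCs of BASCs-Tracer, 82.3% came from a single cell.

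**Figure D3:**
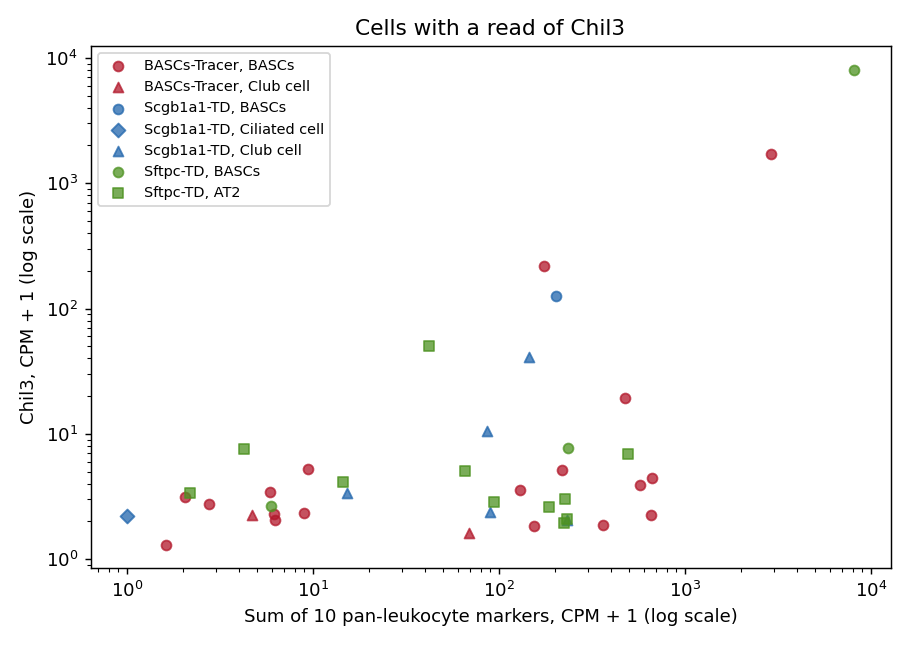
Chil3 against the summed level of 10 pan-leukocyte markers, both as CPM plus 1 on log axes, in the 41 cells with a read of Chil3. Each point is a cell, coloured by line and shaped by sub-type; the cells at 8053 and 1722 CPM of Chil3 lie at 8139 and 2902 CPM of the markers, and the others lie at 217.4 CPM of Chil3 or less.

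Chil4 had 8 reads in 1 AT2 cell of Sftpc-TD on plate 4 (7.11 CPM) and 0 in the other cells. By 3 counts of the total, 0 of 97 club cells of Scgb1a1-TD allows a share of cells with a read of up to 3.09%, and 0 of the BASCs of BASCs-Tracer up to 2.17%. That AT2 cell had Chia1 at 616 CPM, Chil1 at 5312 CPM and no read of Chil3.

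Over cells, Chia1 ran against the secretoglobin Scgb3a2 among club cells. Spearman's coefficient was -0.70 over 15 club cells of BASCs-Tracer (-0.86 and -0.67 on plates 1 and 2) and -0.43 over 97 club cells of Scgb1a1-TD (-0.54, -0.45 and -0.56 on plates 2, 3 and 4). Of the 7 club cells of BASCs-Tracer with most Scgb3a2, 5 had Chia1 at 100 CPM or more, as did 8 of the other 8. In Scgb1a1-TD these counts were 11 of the 48 cells with most Scgb3a2 and 28 of the other 49. For Scgb1a1, the secretoglobin whose promoter drives the Cre recombinase, the Spearman coefficient was -0.44 in BASCs-Tracer and -0.11 in Scgb1a1-TD. Club markers did not all go this way: Scgb3a1 gave -0.47 and -0.15, but Cyp2f2 gave 0.46 in BASCs-Tracer and -0.14 in Scgb1a1-TD. Sftpc ran with Chia1 at 0.24 in BASCs-Tracer and 0.43 in Scgb1a1-TD, while Lyz2, also of the AT2 list, gave -0.20 and 0.23. Total reads gave 0.32 in BASCs-Tracer and -0.16 in Scgb1a1-TD. Cells of a plate share preparation and counts share their total, so these values are descriptions.

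Chia1 and Chil1 had weak or negative coefficients with each other except in ciliated cells. The Spearman coefficient was -0.22 in club cells of BASCs-Tracer, -0.20 in BASCs of BASCs-Tracer, -0.55 in BASCs of Scgb1a1-TD (-0.72 on plate 3 and -0.37 on plate 4), -0.19 in that line's club cells and -0.03 in Sftpc-TD AT2 cells. In ciliated cells, where Chia1 was lowest, the Spearman coefficient was 0.45 with Chil1, 0.72 with Sftpc and -0.56 with total reads. Within AT2 cells Chil1 ran with the sum of the AT2 list at 0.28, and Chia1 at 0.19.

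**Figure D4:**
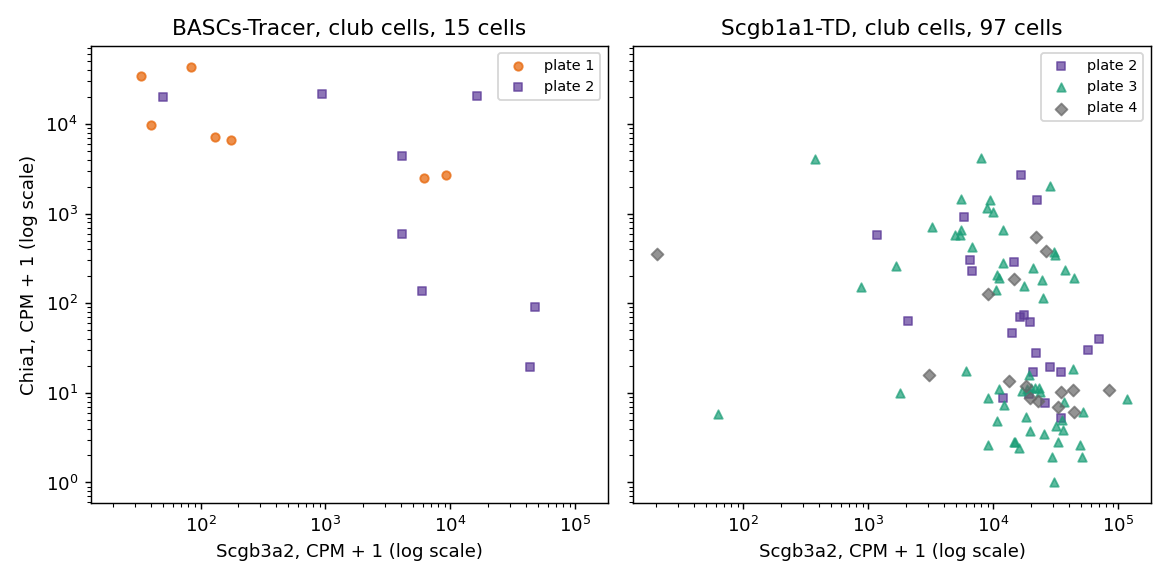
Chia1 against Scgb3a2, both as CPM plus 1 on log axes, in 15 club cells of BASCs-Tracer (left) and 97 club cells of Scgb1a1-TD (right). Each point is a cell, shaped and coloured by plate; the Spearman coefficient is -0.70 on the left and -0.43 on the right, and the highest Chia1 values on the left (43600 and 34523 CPM) lie at 82.2 and 32.3 CPM of Scgb3a2.

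The genes most like each member were sought over 16 groups of line, sub-type and plate with 5 or more cells, among 7923 genes, by Pearson's r of log2 levels. For Chia1 they were Tmsb4x, which encodes an actin-binding thymosin (0.94), Ager, a receptor abundant in alveolar type 1 cells (0.93), Ociad2 (0.92), the chloride channel gene Cftr (0.90) and Igfbp7 (0.89). All of them but Cftr were highest in club cells of BASCs-Tracer. The high Chia1 of those cells chose the members, so this list is a description and supports nothing. For Chil1 they were the surfactant protein gene Sftpa1 (0.98), the chemokine gene Cxcl15 (0.97), Scp2, a sterol carrier (0.96), Sftpb (0.96) and Rbpjl (0.96). For Chil3 they were Laptm5 (0.96), Lsp1 (0.95), Ptprc (0.95), Fxyd5 (0.93) and Ctss (0.93), all highest in the plate 5 BASCs of Sftpc-TD that hold the cell at 8053 CPM.

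Within the 97 club cells of Scgb1a1-TD, over 2303 genes with a read in 50% of cells or more, Chia1 was most like Ager (Spearman coefficient 0.46), the lipid transporter gene Abca3 (0.44), Sftpc (0.43), Iqgap1 (0.42) and Atp11a (0.42). In the 15 club cells of BASCs-Tracer the same genes gave 0.41, -0.21, 0.24, -0.16 and -0.45, so only Ager and Sftpc kept a positive sign. Among the lowest values, looked up after the data were seen, were those of Chad (-0.43), Scgb3a2 (-0.43), Tmem176a (-0.40) and Pon1 (-0.39). In BASCs-Tracer these gave -0.27, -0.70, 0.51 and -0.10.

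The other genes of the family were low. Of 6 in the table, Chit1, the chitotriosidase gene, had 0 CPM in every group. Ctbs, the lysosomal chitobiase, and Chid1 were the measured ones in most pairs. In BASCs-Tracer club cells against Scgb1a1-TD club cells, Chid1 stood at 2.42 against 18.9 CPM (-2.54) and Ctbs at 15.1 against 7.44 CPM (0.93). Between ciliated and club cells of Scgb1a1-TD, Chil5 stood at 26.6 against 0.0926 CPM (4.66), Ctbs at 30.9 against 7.44 CPM (1.92) and Chid1 at 24.1 against 18.9 CPM (0.34). Chil6 and Ovgp1 reached at most 1.22 and 2.57 CPM in any group.

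Genes that use or sense the products of chitin were set beside the members in the 2 comparisons of club cells. In BASCs-Tracer club cells against Scgb1a1-TD club cells, 21.1% of all measured genes were called higher and 29.1% lower, with a median of -0.07. Of the 7 genes that recycle N-acetylglucosamine, all measured, 1 was called higher and 1 lower, with a median of -0.45. Amdhd2, a deacetylase of this route, stood at 34.8 against 14.8 CPM (1.18). In club cells of Scgb1a1-TD against AT2 cells, 2 of the 7 were called lower, beside 19.5% of all measured genes. They were Renbp at 52.5 against 147.2 CPM (-1.47) and Amdhd2 at 14.8 against 50.2 CPM (-1.70).

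Of 8 genes for chitin sensing and chitinase-like receptors, 5 were measured in BASCs-Tracer club cells against Scgb1a1-TD club cells, with a median of 1.01. Of these 1 was called lower, beside 29.1% of all measured genes, and 3 higher, beside 21.1%. They were Lgals3, a galectin, at 300.6 against 49.3 CPM (2.59), the pattern receptor gene Tlr2 at 75.9 against 5.56 CPM (3.55) and Lysmd3 at 96.7 against 47.6 CPM (1.01), while Tmem219, a partner of the Chil1 receptor, stood at 4.49 against 12.5 CPM (-1.30). Il13ra2, a receptor of Chil1, was at 1.86 CPM in AT2 cells of Sftpc-TD and at 0.0844 CPM or less in the other groups.

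The cytokines that induce Chia1 and Chil4 in allergic lungs act through type 2 receptors and Stat6. Of 8 genes of type 2 cytokine signalling 6 were measured in BASCs-Tracer club cells against Scgb1a1-TD club cells (median 0.33). Of these 2 were called higher, beside 21.1% of all measured genes, and 1 lower, beside 29.1%. Il4ra stood at 25.9 against 3.60 CPM (2.55), Il13ra1 at 29.6 against 124.4 CPM (-2.03), and Stat6 at 37.8 against 44.9 CPM (-0.24). Of 16 genes for products of type 2 airway responses 8 were measured in this pair, and 0 were called higher and 7 lower (median -3.47), among them the mucin gene Muc5b at 64.2 against 578 CPM (-3.15). Muc5b is also in the club list and so counts among the club genes called lower as well. Clca1, a goblet cell product, had 0 against 43.6 CPM and Agr2 0 against 33.4 CPM, and Retnla stood at 280 against 315.99 CPM (-0.17). In club cells of Scgb1a1-TD against AT2 cells of Sftpc-TD, 7 of 9 measured were called higher and 1 lower (median 3.97), while both measured members were lower. Over all measured genes of that pair 15.8% were called higher and 19.5% lower. The alarmin genes Tslp and Il25 were not measured in either pair, and Il33 showed 0.06 between the club cells.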

How the data were processed

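Single lung cells were lysed, reverse transcribed with SuperScript II, amplified and sequenced as Nextera XT libraries, per the labels' protocols. The authors deposited 1 table of read counts per gene and cell, with no molecular identifiers; GRCm38, HISAT2 and HTSeq are named in the submitters' processing notes, with no role or version. All 480 columns were matched to samples by name. Counts were summed per line and sub-type and divided by the summed totals to give CPM; ratios used 1 CPM added. The labels name no animal, so each line counts as 1 sample and no p-value was computed. Cells were thinned to 100000 reads for shares, which left out 12 cells. Doublets were not called. The members, the 15 gene lists and the tests were chosen with earlier results of these data known. Named genes were the members, up to 4 genes per list and the 5 genes most like a member; others are said to be chosen later. Alternatives were the scaling, the CPM added, filters on cells and genes, and leaving out each plate. The scripts were tested on simulated data. Python 3.11.15, numpy 2.4.6, pandas 2.3.3, scipy 1.17.1, Biopython 1.88 and matplotlib 3.10.9 were used. Values of some list genes are not reported here.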

Additional observations from a re-analysis of the deposited data

Results flagged for a closer look

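The difference in Chia1 between BASCs and club cells ran in opposite directions in the lines that held both. The log2 ratio was -3.04 in BASCs-Tracer and 2.69 in Scgb1a1-TD. The BASCs-Tracer ratio rests on the high Chia1 of its club cells, the value by which the genes were chosen, so the reversal is a description and supports nothing. The difference between the lines was not tested.

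Groups too small for the comparisons also held the genes above the level of ciliated cells. The 6 AT2 cells of BASCs-Tracer had Chia1 at 1082 CPM and Chil1 at 6704 CPM. The lone AT2 cell of Scgb1a1-TD had Chia1 at 5316 CPM and Chil1 at 7441 CPM. The lone cell of BASCs-Tracer with a ciliated label, whose markers were mixed, had Chia1 at 110 CPM and Chil1 at 7560 CPM.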

How the results depend on the processing

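T, S and F stand here for BASCs-Tracer, Scgb1a1-TD and Sftpc-TD. Over all alternatives to 23 member ratios, 62 values moved beyond 1.5-fold, and 4 more changed the sign of a ratio called at 2-fold, all for Chil3. Ratios under 2-fold also changed sign, among them Chil1 in T club over S club and Chia1 in F BASCs over F AT2, T BASCs over F AT2 and T BASCs over S BASCs.

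Leaving out 1 plate at a time gave ranges of 5.40 to 6.53 for Chia1 and -0.85 to 0.65 for Chil1 (T club over S club), -3.80 to -2.61 for Chia1 (S club over F AT2), 2.34 to 3.49 for Chia1 and 2.63 to 4.11 for Chil3 (T BASCs over S club), 2.76 to 4.20 for Chil3 (T BASCs over F AT2), 2.06 to 2.85 for Chil1 and 2.91 to 4.36 for Chil3 (T BASCs over T club), 2.50 to 3.56 for Chia1 (S BASCs over S club), -5.35 to -3.35 for Chia1 and -4.74 to -3.68 for Chil1 (S ciliated over S club), -2.41 to 0.18 for Chia1 and -0.80 to 9.12 for Chil3 (F BASCs over F AT2), and 1.06 to 4.23 for Chil3 (T BASCs over S BASCs).

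Of the leukocyte markers, Lcp1 alone stood at 122.9 CPM in S club and 131.9 CPM in F AT2 cells, and Ptprc at 0.0103 and 0.0208 CPM. A limit of 50 CPM on their sum thus parts such cells largely by Lcp1. Under 50 CPM of leukocyte markers were 4 T club, 72 T BASCs, 39 S club, 15 S BASCs, 21 S ciliated, 5 F BASCs and 76 F AT2 cells, so this alternative compares smaller sets of cells. Among them, Chia1 was 6.65 (T club over S club), -3.50 (S club over F AT2), 3.78 (T BASCs over S club), 0.29 (T BASCs over F AT2), -4.15 (S ciliated over S club) and 0.86 (T BASCs over S BASCs). Chil1 was -1.43 (T club over S club), 3.70 (T BASCs over T club) and -4.71 (S ciliated over S club). Chil3 was 0.21 (T BASCs over S club), -0.42 (T BASCs over F AT2), -0.0762 (T BASCs over T club), -0.24 (F BASCs over F AT2) and 0.25 (T BASCs over S BASCs). For Chil3 the limit left out the T BASCs at 1722 and 217.4 CPM and kept the F AT2 cell at 49.6 CPM.

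From median cells, chosen after seeing the data, Chia1 was 8.48 (T club over S club), -6.13 (S club over F AT2), 4.35 (T BASCs over S club), -1.78 (T BASCs over F AT2), -4.12 (T BASCs over T club), 5.73 (S BASCs over S club), -0.85 (S ciliated over S club) and -1.38 (T BASCs over S BASCs). Chil1 was -5.41 (S ciliated over S club), and Chil3 was 0 in each of its 5 pairs.

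On plates with both groups, Chia1 and Chil1 were -3.91 and -2.89 (S club over F AT2), Chia1 and Chil3 were 3.36 and 2.93 (T BASCs over S club), and 1.44 and 3.19 (T BASCs over S BASCs). Without the highest cell of each group, Chil3 was 2.00 (T BASCs over S club), 1.92 (T BASCs over F AT2), 1.87 (T BASCs over T club) and 0.18 (F BASCs over F AT2), and Chil1 was -4.76 (S ciliated over S club). With 10 CPM added, Chil3 was 1.41 (T BASCs over S club), 1.43 (T BASCs over F AT2), 1.45 (T BASCs over T club), 5.24 (F BASCs over F AT2) and 1.06 (T BASCs over S BASCs), and Chia1 was -4.02 (S ciliated over S club). With totals that leave out mitochondrial and the 10 most-read genes, Chil3 was 4.55 (T BASCs over T club), and Chia1 and Chil1 were -5.55 and -4.53 (S ciliated over S club). As a mean over cells, Chil3 was 8.90 (F BASCs over F AT2). The causes were not tested.

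Per 100 genes measured, 50.2 (T club over S club), 35.3 (S club over F AT2), 33.8 (T BASCs over S club), 19.1 (T BASCs over F AT2), 52.8 (T BASCs over T club), 41.9 (S BASCs over S club), 57.9 (S ciliated over S club), 51.9 (F BASCs over F AT2) and 31.4 (T BASCs over S BASCs) were 2-fold apart. With no filter on low genes, unmeasured genes 2-fold apart were counted too, while the divisor stayed the number of measured genes. The result, which is not a share of measured genes, was 75.9, 56.7, 55.4, 38.9, 79.7 and 66.1 per 100 in the first 6 pairs. In the last 2 pairs it was 79.4 and 56.3 per 100. With 10 CPM added, the measured genes 2-fold apart were 25.98, 15.9, 13.8, 3.70, 28.9, 18.6, 36.02, 27.1 and 9.19 per 100. Of 72 alternative shares of cells with a read, 27 moved. No paired analysis was possible because the labels number cells, not animals, and no test was run. Depth limits Chil4, with 8 reads in all, and cells under 100000 reads.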
